A study of Mus musculus with 6 samples.

Results

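The genes described here encode the heat shock proteins and chaperones of the mouse: the HSP70 family (Hspa genes), the small heat shock proteins (Hspb genes), HSP60, HSP10 and HSP110 (Hspd1, Hspe1 and Hsph1), the cytosolic chaperonin TRiC (Tcp1 and the Cct genes), the J-proteins (Dnaja, Dnajb and Dnajc genes) and the heat shock factors Hsf1 and Hsf2. They were chosen by symbol among the protein-coding genes of the deposited table. The choice gave 84 rows with 83 distinct symbols, of 22196 protein-coding rows and 43629 rows in all, and Dnajc19 stands under 2 identifiers, 1 of them with no reads. An overlapping protein-coding row on the same strand, with the symbol DNAJC19 in capitals, was not matched. Its mean was 33.5 in control and 23.7 in tumor. Another 9 rows that match the naming pattern are of another biotype and were left aside. Hspbap1 and Hspbp1, which match the pattern but encode partners of heat shock proteins, were kept as a group of 2.

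RNA sequencing compared 3 libraries of Math1-Cre SmoM2.c/wt medulloblastoma (tumor 1 to 3) with 3 libraries of SmoM2.c/wt cerebellum (control 1 to 3). Both groups came from female C57BL/6 mice at postnatal day 35 and carry the SmoM2 allele, which encodes an activated form of the Hedgehog pathway receptor Smoothened. The controls lack Math1-Cre, a Cre driven by Math1 (Atoh1) regulatory sequence that is active in granule neuron progenitors, so one group is dissected tumor and the other whole cerebellum. Whether each numbered library is from its own mouse is not said in the labels; p-values reflect the spread between libraries only, which may be technical. Values are normalized counts, meaning reads divided by 1 size factor per library, and values for 3 libraries are given in the order 1, 2, 3.

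Chaperones bind unfolded or partly folded proteins and let them fold, move between compartments or be degraded. HSP70 proteins bind and release short exposed stretches of a client in a cycle driven by ATP, J-proteins bring clients and start ATP hydrolysis, and nucleotide exchange factors such as HSP110 reset the cycle. TRiC is a closed double ring that folds actin, tubulin and other cytosolic proteins, HSP60 with its lid HSP10 does the same in the mitochondrial matrix, small heat shock proteins hold unfolded clients without ATP, and Hsf1 drives transcription of many of these genes after proteotoxic stress. In the cerebellum, several J-proteins have specialised neuronal tasks, such as the upkeep of synaptic vesicle proteins by Dnajc5.

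Of the 84 rows, 78 passed the filter on low values, which was a value over 1 in at least 3 libraries, and 6 did not (Hspb9, Cct8l1, Dnajb7, Dnajb8, Dnajc5g and the second Dnajc19 row, 4 of them with no read in any library). At an adjusted p under 0.05 in limma, with Benjamini-Hochberg adjustment over all 22117 genes tested, 30 members were higher in tumor and 27 were lower. Over all genes tested, 62.1% were called in either direction, 30.6% higher and 31.5% lower. For the members the share called was 73.1%, with 21 members not called. Among the called members 9 were at least 2-fold higher and 17 at least 2-fold lower, against 17.5% and 20.5% of all genes tested. The median log2 fold change of the tested members was 0.084, and that of all genes tested was -0.0215. All 3 tumors lay above all 3 controls for 32 members and below them for 28, where all genes tested gave 33.2% above and 34.5% below.

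The families differed in the direction of their called genes. TRiC had 8 of 9 tested genes higher and none lower, and HSP60, HSP10 and HSP110 had 3 of 3 higher. The small heat shock proteins had no member higher and 4 of 7 lower. HSP70 (4 higher, 6 lower, 3 not called), DNAJA (1, 2 and 1), DNAJB (2, 4 and 5) and DNAJC (9, 11 and 7) held genes that moved both ways.

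**Figure D1:**
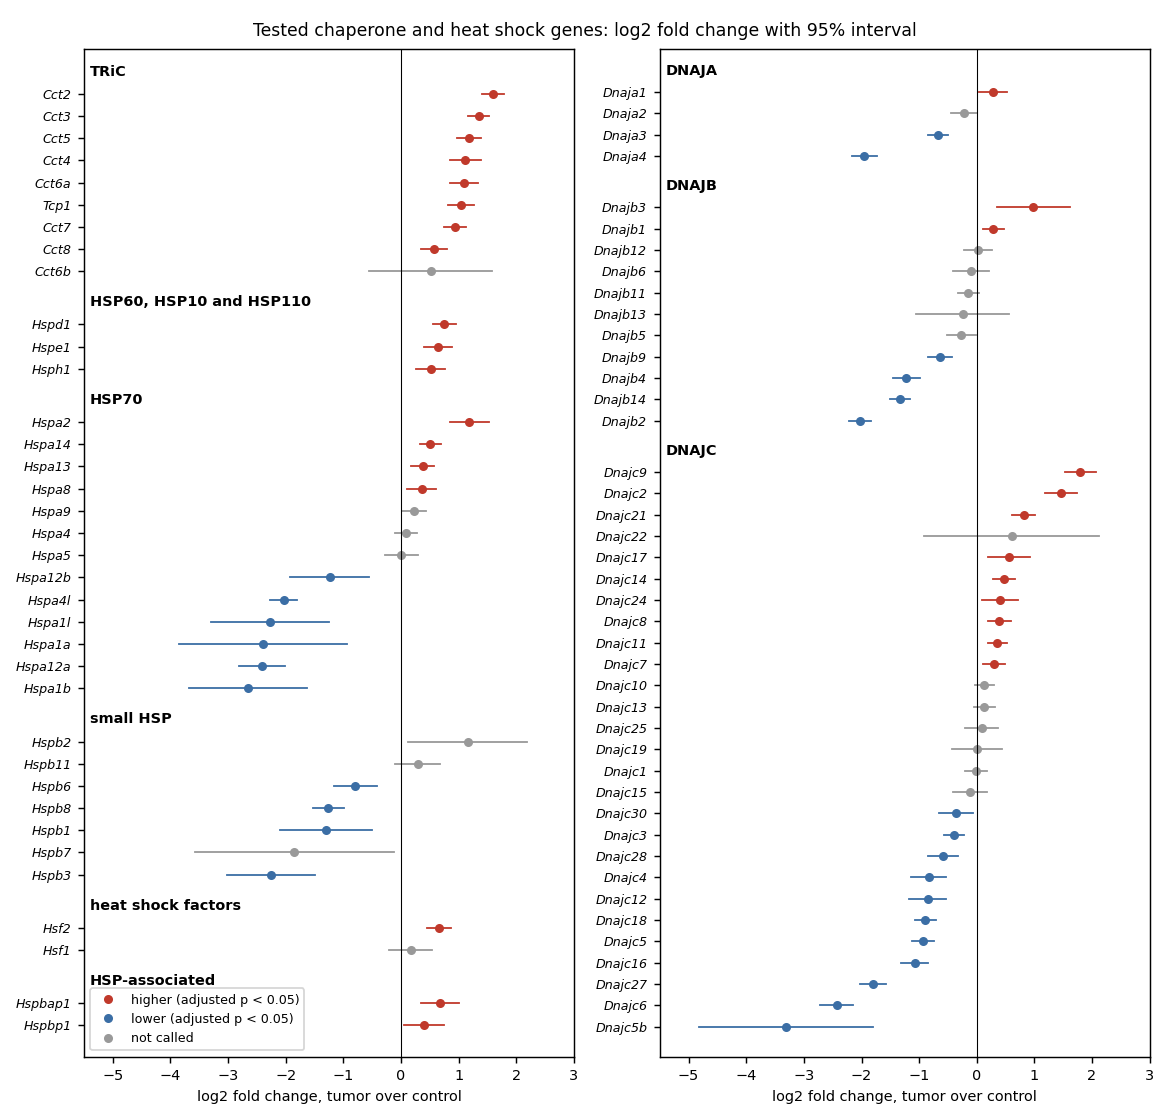
Log2 fold change of tumor over control with its 95% interval for the 78 tested members, grouped by family and coloured by limma call. Every core TRiC subunit lies to the right of 0, and the HSP70 and DNAJ families spread to both sides, from -3.31 for Dnajc5b to 1.79 for Dnajc9.

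Summed levels of each family were compared beside the single genes. All members together summed to 437084 ± 8066 normalized counts (SD, n = 3) in control and 511754 ± 47909 in tumor, which is 1.17 times the control sum. TRiC alone went from 82392 ± 1526 to 177601 ± 18898, or 2.16 times. The HSP70 sum was 150968 ± 4692 in control and 151214 ± 16951 in tumor, a ratio of 1.0, although 10 of its 13 genes were called. DNAJB fell to 0.625 and DNAJC to 0.815 of the control sum, with every tumor library below every control library in both. Sums weight genes by their abundance and transcript length, so Hspa8 makes up much of the HSP70 sum. In DNAJC the largest falls in counts were of Dnajc6 (mean 15930 to 2990) and Dnajc5 (22210 to 11668). In that family 9 genes were called higher and 11 lower, with a median log2 fold change of 0.0032. The members together took 0.814% to 0.841% of the reads in control libraries and 0.974% to 1.10% in tumor libraries.

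**Figure D2:**
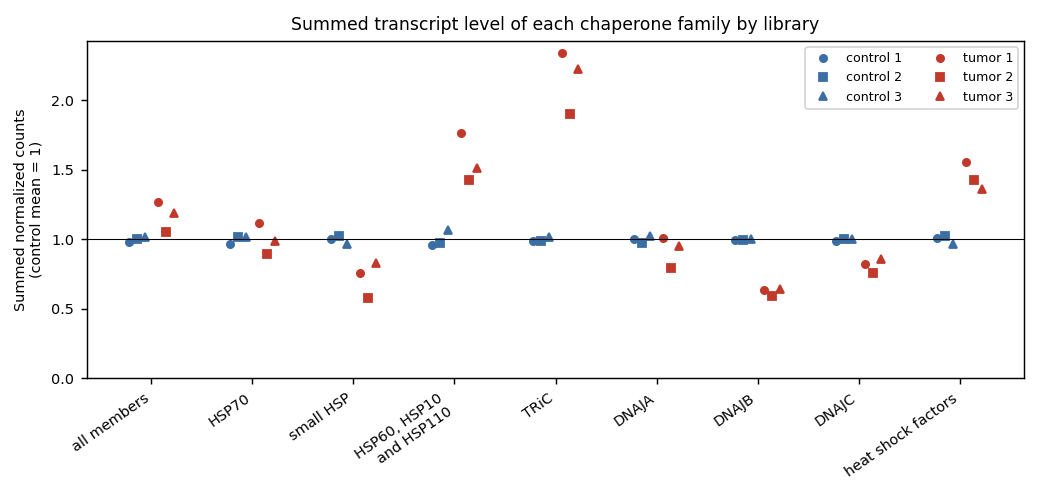
Summed normalized counts of each family in each library, divided by the control mean of that family. TRiC reaches 1.90 to 2.34 times the control mean in the tumors, while DNAJB lies between 0.593 and 0.644 and the HSP70 tumors lie on both sides of 1.

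Depth ran from 44902217 to 69550200 reads per library, and 3 reads, taken as the floor of detection, correspond to 2.17 to 3.57 normalized counts; this floor covers counting error only. In bulk tissue, fewer cells of a type and less RNA per cell cannot be told apart. Most marker lists moved in 1 direction between the groups: 6 of 6 granule progenitor or tumor markers were higher in tumor, and 6 of 6 mature granule neuron, 6 of 6 Purkinje cell, 4 of 4 GABAergic interneuron and 6 of 6 oligodendrocyte markers were lower. The summed mature granule neuron markers ran from 227452 to 261411 normalized counts in control and from 20555 to 34676 in tumor, tumor 3 being highest of the tumors. Microglia markers were higher for 6 of 7, endothelial markers lower for 5 of 6, and ependymal markers lower for 5 of 6. Mural and smooth muscle markers were lower for 5 of 7 and higher for 1, choroid plexus markers lower for 5 of 7 and higher for 1, and astrocyte and Bergmann glia markers lower for 4 of 6 and higher for 1. No defining marker of these lists was at 0 in all libraries, but the choroid plexus marker Kcne2 was at 0 in tumor 3. The summed choroid plexus markers were 28742, 24193 and 5956 in tumors 1, 2 and 3. The part of these cell types in the chaperone values was not tested.

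TRiC is built from 8 different subunits, each encoded by its own gene, and all of these genes rose. Cct2, at chr10:117050998-117063814 (mm10, minus strand), rose most, with 9079.7, 9043 and 9244 normalized counts in the controls and 29276, 25184 and 28454 in the tumors (log2 fold change 1.60 ± 0.083, limma adjusted p = 1.69e-07, the error being the standard error here and below). That is a rise of 3.02-fold on the log2(value + 1) scale. All 3 tumor libraries lay above all 3 controls for each of the 8 genes.

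Cct3 had 8479, 9005 and 8939 normalized counts in the controls and 24201, 20868 and 22262 in the tumors (log2 fold change 1.35 ± 0.083, limma adjusted p = 4.92e-07). Cct5 had 9495, 9731 and 9953 normalized counts in the controls and 24756, 20036 and 21801 in the tumors (log2 fold change 1.19 ± 0.092, limma adjusted p = 2.26e-06). Cct4, with 8016, 7535 and 8102 normalized counts in the controls and 19817, 14217 and 17718 in the tumors, rose by a similar amount (log2 fold change 1.12 ± 0.12, limma adjusted p = 1.93e-05). In each case the lowest tumor library was well above the highest control. Cct6a read 8919, 9079 and 9856 in the controls and 21028, 16925 and 21778 in the tumors (log2 fold change 1.09 ± 0.11, limma adjusted p = 1.12e-05). Tcp1, the founding subunit, read 13823, 13459.9 and 13845 in the controls and 31221, 24210.4 and 29670.5 in the tumors (log2 fold change 1.04 ± 0.10, limma adjusted p = 1.29e-05). Cct7 read 9098, 9660.1 and 9777 in the controls and 19313, 16577 and 18921 in the tumors (log2 fold change 0.94 ± 0.086, limma adjusted p = 7.32e-06). The tumors again lay above the controls for these 3 genes. Cct8 had the smallest rise of the 8, from 14438, 14142 and 14420.0 to 23271, 18446 and 22796 (log2 fold change 0.58 ± 0.10, limma adjusted p = 0.000644), still without overlap.

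**Figure D3:**
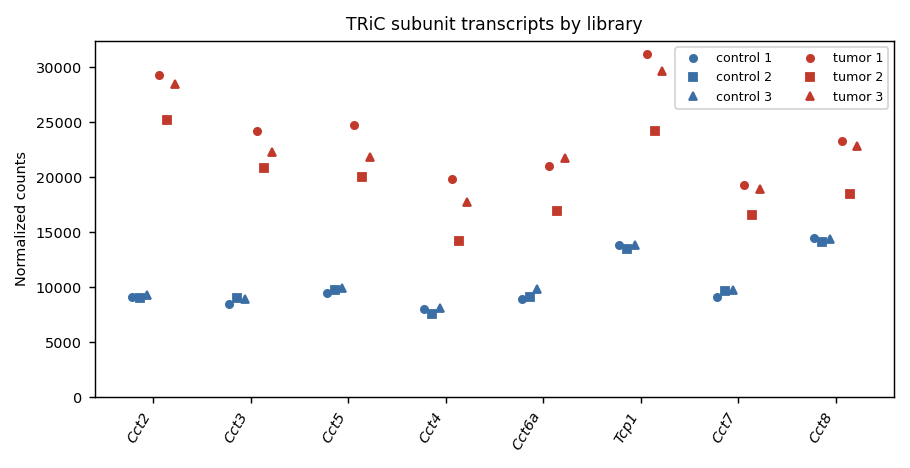
Normalized counts of the 8 core TRiC subunit genes in the 3 control and 3 tumor libraries, on a linear axis from 0. Controls lie close together for each gene, every tumor library is above them, and tumor 2 is the lowest of the tumors for all 8 genes.

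The subunits of the complex stand in equal number in the assembled ring, while their transcripts rose by unequal amounts. Per kilobase of exon, Cct2 made up 16.5% ± 0.112 (SD, n = 3) of the summed core subunit level in control and 22.9% ± 0.673 in tumor. Cct8 went the other way, from 21.4% ± 0.352 to 14.7% ± 0.394, and Cct8 was the most abundant subunit transcript per kilobase in every control library and Cct2 in every tumor library. This ranking depends on the annotated exon lengths, which may differ from those of the transcripts expressed. The ratio of Cct8 to Cct2 normalized counts was 1.59, 1.56 and 1.56 in the controls and 0.795, 0.732 and 0.801 in the tumors. These ratios do not overlap; the exact two-sided permutation p of 0.1 is the smallest that 3 against 3 libraries can give. The shares of the other 6 subunits shifted by at most 1.1 percentage points, the most being for Cct3. Cct7, Cct8 and Tcp1 overlap Pradc1, Usp16 and Mrpl18 on the other strand.

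Tumor 2 was the lowest of the tumors for all 8 core subunits and tumor 1 the highest for 7. Over all 78 tested members tumor 2 was the lowest tumor for 62.8%, and over all genes tested for 37.7%. Cct6b, a subunit form known from testis, was at a low level with 16.8, 11.9 and 8.55 normalized counts in the controls and 28.2, 16.1 and 11.8 in the tumors and was not called (log2 fold change 0.51 ± 0.47, limma adjusted p = 0.372). Cct8l1 had 1 read in all 6 libraries together.

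The mitochondrial chaperonin also rose. Hspd1, which encodes HSP60, had 9965, 10346 and 11051 normalized counts in the controls and 19335, 16258 and 17352 in the tumors (log2 fold change 0.75 ± 0.089, limma adjusted p = 4.7e-05). Hspe1, which encodes its lid HSP10, had 4054, 3551 and 3964 normalized counts in the controls and 6624, 5177 and 6293 in the tumors (log2 fold change 0.64 ± 0.11, limma adjusted p = 0.000495). The tumors were above the controls for both genes, and the ratio of Hspe1 to Hspd1 overlapped between the groups (0.370 ± 0.0331 in control, 0.341 ± 0.0222 in tumor; exact two-sided permutation p = 0.4). The pair lies head to head on chromosome 1, and the annotated genes overlap on opposite strands. The use of strand in counting is not known here, so reads in the overlap may be shared.

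The sequence between the RefSeq starts of Hspe1 and Hspd1 is shown because both genes rose together and share this stretch. It is chr1:55087933-55088147 on the plus strand of GRCm38.p6 (RefSeq) and ends 1 base before the Hspe1 start. The letters run from the Hspd1 side to the Hspe1 side, and the label below names the pair only. Capitals mark the matches to the heat shock element, taken as GAA, TTC and GAA with any 2 bases between the units and searched on both strands.

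Hspe1 to Hspd1: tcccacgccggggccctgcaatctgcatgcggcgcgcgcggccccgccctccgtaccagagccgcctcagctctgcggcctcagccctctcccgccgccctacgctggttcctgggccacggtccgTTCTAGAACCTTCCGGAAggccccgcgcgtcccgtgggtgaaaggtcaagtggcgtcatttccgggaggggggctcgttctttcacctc

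The capitals are 2 overlapping matches, one on each strand, within 1 run of alternating TTC and GAA units. The search covered 250 bases before to 50 bases after each RefSeq start, and 69 of the 83 member symbols had such a promoter. The motif was found for 4 members, Hspd1, Hspe1, Hsph1 and Dnajb6, which is 5.8% of the members with a promoter and compares with 0.662% of all 27025 genes searched. Hspd1, Hspe1 and Hsph1 were higher in tumor and Dnajb6 was not called. The matches of Hspd1 and Hspe1 are the same bases, so these 2 genes do not count apart. No match to this strict form was found for Hspa1a and Hspa1b, which were lower, or for Dnajb1, which was higher, although their promoters were searched. The motif therefore does not sort the members by direction. A match is a description of the letters and not a measured binding site.

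Hsph1 encodes HSP110, a nucleotide exchange factor of HSP70. It had 8876, 9267 and 10366 normalized counts in the controls and 16049, 12521 and 12367 in the tumors (log2 fold change 0.51 ± 0.11, limma adjusted p = 0.00303). The lowest tumor library was above the highest control. Its match lies just after the RefSeq start, at chr5:149636288-149636300 on the minus strand of GRCm38.p6, and capitals mark the whole match.

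Hsph1 motif: TTCTGGAAAGTTC

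Within HSP70, the constitutive cytosolic gene Hspa8, which encodes HSC70, was the most abundant member per kilobase in both groups. It had 50088, 54484 and 54943 normalized counts in the controls and 78387, 59995 and 66789 in the tumors. All tumors were above all controls, by a small margin between control 3 and tumor 2 (log2 fold change 0.36 ± 0.11, limma adjusted p = 0.0214). The call was lost under upper-quartile scaling and without control 1 or tumor 1, where the adjusted p was at most 0.0804.

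Other HSP70 genes with a rise were smaller in level. Hspa2, a form best known from meiotic germ cells, had 579.6, 534 and 477 normalized counts in the controls and 1252, 1417 and 977 in the tumors (log2 fold change 1.18 ± 0.15, limma adjusted p = 7.72e-05), a rise of 2.27-fold. Hspa14, which works with Dnajc2 at the ribosome, had 3800.1, 3549 and 3603 normalized counts in the controls and 5291, 4785 and 5513 in the tumors (log2 fold change 0.51 ± 0.083, limma adjusted p = 0.000443). Hspa13, an HSP70-like protein of the endoplasmic reticulum, had 3842, 4052 and 4101 normalized counts in the controls and 5355, 4702 and 5513 in the tumors (log2 fold change 0.37 ± 0.086, limma adjusted p = 0.00372). For all 3 genes the tumors were above the controls.

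The stress-inducible genes Hspa1a and Hspa1b fell. They lie close together at chr17:34969190-34972156 and chr17:34956436-34959238 (mm10) and encode near-identical proteins, so reads may be split between them and their sum is also given. Hspa1a had 108, 90.4 and 66.3 normalized counts in the controls and 4.33, 19.8 and 40.3 in the tumors (log2 fold change -2.40 ± 0.65, limma adjusted p = 0.00932), and Hspa1b had 207, 84.4 and 214 normalized counts in the controls and 40.4, 20.8 and 15.7 in the tumors (log2 fold change -2.66 ± 0.46, limma adjusted p = 0.000602). The sum was 315, 175 and 280.1 in the controls and 44.8, 40.6 and 56.1 in the tumors. The groups do not overlap, and the controls spread over a wider range than the tumors. Hspa1l, the neighbouring HSP70 gene known from testis, fell from 31.3, 17.8 and 24.6 to 5.06, 2.83 and 4.92 (log2 fold change -2.27 ± 0.46, limma adjusted p = 0.00165), on 66 control and 15 tumor reads in all; it overlaps an antisense gene, Gm10501, that had a mean of 210.4 in control and 326 in tumor. Hspa1a and Hspa1l are among 11 tested members with both group means under 100.

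Immediate early genes, which respond to handling as well as to activity, were set beside the inducible genes. Of 10 tested, 5 were higher and 2 lower in tumor, with 3 higher when control 1 or tumor 1 was left out. The shares over all genes tested were 30.6% higher and 31.5% lower. Fos fell from 353, 653 and 233 to 195, 174 and 121 (log2 fold change -1.23 ± 0.34, limma adjusted p = 0.0106) and Egr1 from 1581, 1349 and 1141 to 295, 328 and 460.4 (log2 fold change -1.92 ± 0.18, limma adjusted p = 1.02e-05). In contrast, Egr2 rose (log2 fold change 3.54 ± 0.29, limma adjusted p = 3.76e-06) and Ier2 rose (log2 fold change 1.04 ± 0.17, limma adjusted p = 0.000394). Their part in the Hspa1a and Hspa1b values was not tested.

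Hspa4l and Hspa12a showed the largest falls among abundant HSP70 genes. Hspa4l, by structure an HSP110 protein like Hspa4 and Hsph1, had 21765, 22382 and 22112 normalized counts in the controls and 5467, 4644 and 6165 in the tumors (log2 fold change -2.03 ± 0.10, limma adjusted p = 1.49e-07), a fall of 4.10-fold. Hspa4 itself had 18671, 18980.2 and 19465 normalized counts in the controls and 21893, 18894 and 19945 in the tumors and was not called (log2 fold change 0.086 ± 0.083, limma adjusted p = 0.396). The 2 genes were near equal in normalized counts in control, with Hspa4l over Hspa4 at 1.17, 1.18 and 1.14, and far apart in tumor, at 0.250, 0.246 and 0.309. Hspa4l and Hsph1 thus moved in opposite directions. Hspa12a, an atypical HSP70 member enriched in brain, fell from 7629, 7741 and 7426 to 1059, 1402 and 1947 (log2 fold change -2.41 ± 0.18, limma adjusted p = 1.73e-06), tumor 3 being the highest tumor. Hspa12b, known from endothelium, fell from 245, 262 and 319 to 68.6, 157 and 142 (log2 fold change -1.24 ± 0.30, limma adjusted p = 0.00529).

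The main HSP70 genes of the endoplasmic reticulum and of mitochondria were not called. Hspa5 encodes BiP, the abundant HSP70 of the endoplasmic reticulum, and had 19435, 21476 and 21759 normalized counts in the controls and 25849, 19308 and 18299 in the tumors. Tumor 1 was above and tumors 2 and 3 were below all controls, so the groups overlap (log2 fold change 0.0027 ± 0.13, limma adjusted p = 0.987), with a 95% interval of -0.29 to 0.29. Hspa9, the mitochondrial HSP70 called mortalin, had 19166, 19664 and 19514 normalized counts in the controls and 24383, 19976 and 23913 in the tumors (log2 fold change 0.22 ± 0.094, limma adjusted p = 0.0654). Its tumors were above its controls, with a 95% interval of 0.01 to 0.43, and it was called higher in 4 of 16 alternatives (TMM scaling, edgeR, library totals and without tumor 2).

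**Figure D4:**
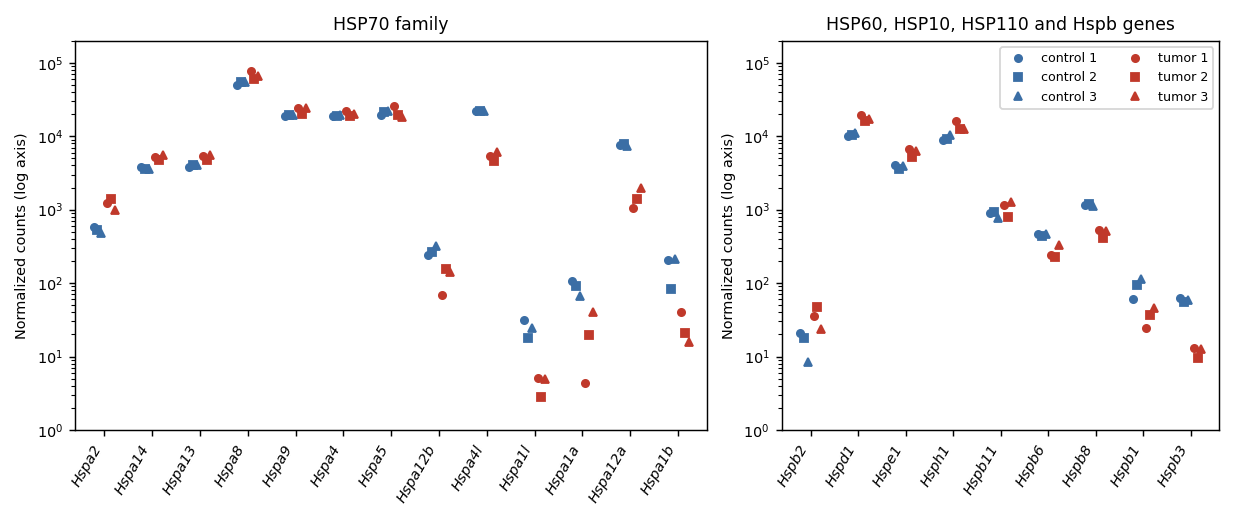
Normalized counts per library on a log axis for HSP70 genes (left) and for Hspd1, Hspe1, Hsph1 and Hspb genes other than Hspb7 and Hspb9 (right), sorted by log2 fold change within each panel. Hspa1a, Hspa1b and Hspa1l lie at the low end with wide spread, and Hspa4l and Hspa12a show tumors far below tightly grouped controls.

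The 2 partners of heat shock proteins kept among the members were both called higher. Hspbap1, a protein that binds Hspb1, had 236, 262 and 277 normalized counts in the controls and 415, 445 and 379.8 in the tumors (log2 fold change 0.68 ± 0.15, limma adjusted p = 0.00249). Hspbp1, a nucleotide exchange factor of HSP70, had 634, 757 and 823 normalized counts in the controls and 989, 1137 and 799.9 in the tumors; tumor 3 lay among the controls, and the call (log2 fold change 0.39 ± 0.15, limma adjusted p = 0.0463) was lost in 6 of 16 alternatives, among them those without control 1, control 2, tumor 1 or tumor 2, with an adjusted p of at most 0.17.

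Small heat shock proteins fell where they were called. Hspb8, a partner of Bag3 in the clearance of misfolded proteins, had 1161, 1187 and 1119.5 normalized counts in the controls and 527, 415 and 512 in the tumors (log2 fold change -1.26 ± 0.12, limma adjusted p = 1.13e-05). Hspb6 had 460.1, 433 and 467 normalized counts in the controls and 239.8, 228 and 327 in the tumors (log2 fold change -0.79 ± 0.17, limma adjusted p = 0.0023), and it overlaps Lin37 and Proser3 on the other strand. Hspb1, known as HSP27, had 60.3, 93.9 and 114 normalized counts in the controls and 24.6, 36.9 and 45.3 in the tumors (log2 fold change -1.30 ± 0.35, limma adjusted p = 0.00946). All tumors were below all controls for these 3 genes. Hspb3, best known from muscle, fell from 63.7, 55.9 and 58.8 to 13, 9.45 and 12.8 (log2 fold change -2.26 ± 0.34, limma adjusted p = 0.000268). Of the alpha crystallins, which belong to the same protein family, Cryab fell from 4628, 4529 and 5583 to 2471, 2218 and 2241 (log2 fold change -1.08 ± 0.10, limma adjusted p = 8.16e-06) and Cryaa had no reads. Cryab is also abundant in oligodendrocytes, whose summed markers ran from 659707 to 805671 in control and from 61496 to 156547 in tumor. The summed mural and smooth muscle markers ran from 13238 to 14220 in control and from 3310 to 6547 in tumor, and their part in the small heat shock values was not tested.

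Hspb2 was not called, with 21.2, 17.8 and 8.55 normalized counts in the controls and 36.1, 47.2 and 23.6 in the tumors (log2 fold change 1.15 ± 0.46, limma adjusted p = 0.0508), although the tumors were above the controls. It was called higher in 6 of 15 alternatives, among them edgeR, library totals, a pseudocount of 10 and those without control 1 or tumor 3. Hspb11, a protein of cilia, had 897, 929.7 and 779 normalized counts in the controls and 1163, 792 and 1281 in the tumors and overlapped between the groups, and Hspb7 rested on 15 control and 4 tumor reads. Without tumor 2, Hspb11 was called higher and Hspb7 lower.

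DNAJA genes, which encode general partners of HSP70, moved in both directions. Dnaja1 had 11292, 10895 and 11636 normalized counts in the controls and 15594, 11796 and 13959 in the tumors (log2 fold change 0.28 ± 0.10, limma adjusted p = 0.0398). Its tumors were above its controls, by a small margin between control 3 and tumor 2. The call was lost in 6 of 16 alternatives (upper-quartile scaling and without any 1 library other than tumor 2), where the adjusted p was at most 0.138, and the gene overlaps Smu1 on the other strand. Dnaja4 fell 3.88-fold, from 2313, 2134 and 2334 to 576, 552 and 619 (log2 fold change -1.96 ± 0.096, limma adjusted p = 1.19e-07). Dnaja3, the mitochondrial form known as Tid1, fell from 3955, 3984 and 4133 to 2666, 2396 and 2519 (log2 fold change -0.67 ± 0.079, limma adjusted p = 4.42e-05). Both falls were without overlap. Dnaja2 had 14014, 13691 and 14308 normalized counts in the controls and 13064, 10269 and 12888 in the tumors and was not called (log2 fold change -0.22 ± 0.10, limma adjusted p = 0.0837). Its tumors were below its controls, and it was called lower under upper-quartile scaling and without tumor 3.

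Among the DNAJB genes, Dnajb2, whose protein is enriched in neurons, showed the largest fall. It had 4023, 4273 and 4426 normalized counts in the controls and 1093, 1045 and 979.9 in the tumors (log2 fold change -2.03 ± 0.086, limma adjusted p = 4.98e-08), 4.08-fold lower in tumor. Dnajb1, the stress-inducible cytosolic partner of HSP70, rose with 1754, 1733 and 1788 normalized counts in the controls and 2199, 2058 and 2191 in the tumors (log2 fold change 0.29 ± 0.081, limma adjusted p = 0.0107; 0.0511 without control 2). Dnajb2 over Dnajb1 was 2.29, 2.47 and 2.48 in the controls and 0.497, 0.508 and 0.447 in the tumors. These ratios were bound not to overlap, as all tumors were below the controls for Dnajb2 and above them for Dnajb1. The exact two-sided permutation p of 0.1, the smallest possible, is therefore no separate test. Dnajb1 and the inducible genes Hspa1a and Hspa1b, which share Hsf1 as a known regulator, thus differ in direction.

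Dnajb14, an endoplasmic reticulum membrane protein, had 8639, 8361 and 8178 normalized counts in the controls and 3293, 3162 and 3544 in the tumors (log2 fold change -1.33 ± 0.078, limma adjusted p = 3.43e-07). Dnajb4 had 5495, 5392 and 5542 normalized counts in the controls and 2377, 2051 and 2661 in the tumors (log2 fold change -1.22 ± 0.10, limma adjusted p = 3.61e-06). Dnajb9, the endoplasmic reticulum J-protein ERdj4, had 4037, 4089.9 and 3949 normalized counts in the controls and 2551, 2365 and 2862 in the tumors (log2 fold change -0.64 ± 0.089, limma adjusted p = 0.000154). For all 3 genes the tumors were below the controls. Dnajb3, known from testis, rose from 48.0, 41.6 and 52.4 to 118, 95.4 and 73.8 (log2 fold change 0.98 ± 0.28, limma adjusted p = 0.0123; 0.0505 without tumor 1), and it overlaps Ugt1a genes on the other strand, of which Ugt1a7c had a mean of 19.2 in control and 65.4 in tumor.

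Dnajb6, which suppresses aggregation of polyglutamine proteins, had 3689.5, 3343 and 3587 normalized counts in the controls and 3728, 2585 and 3764 in the tumors and was not called (log2 fold change -0.096 ± 0.14, limma adjusted p = 0.577); tumor 2 was below the other 5 libraries. Dnajb11, the endoplasmic reticulum J-protein ERdj3, had 3755, 3826 and 4071 normalized counts in the controls and 3779.8, 3326 and 3425 in the tumors and was not called (log2 fold change -0.15 ± 0.083, limma adjusted p = 0.152). Dnajb5, Dnajb12 and Dnajb13 were not called either, with log2 fold changes from -0.27 to 0.028, but Dnajb5 was called lower under upper-quartile scaling and without tumor 2.

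**Figure D5:**
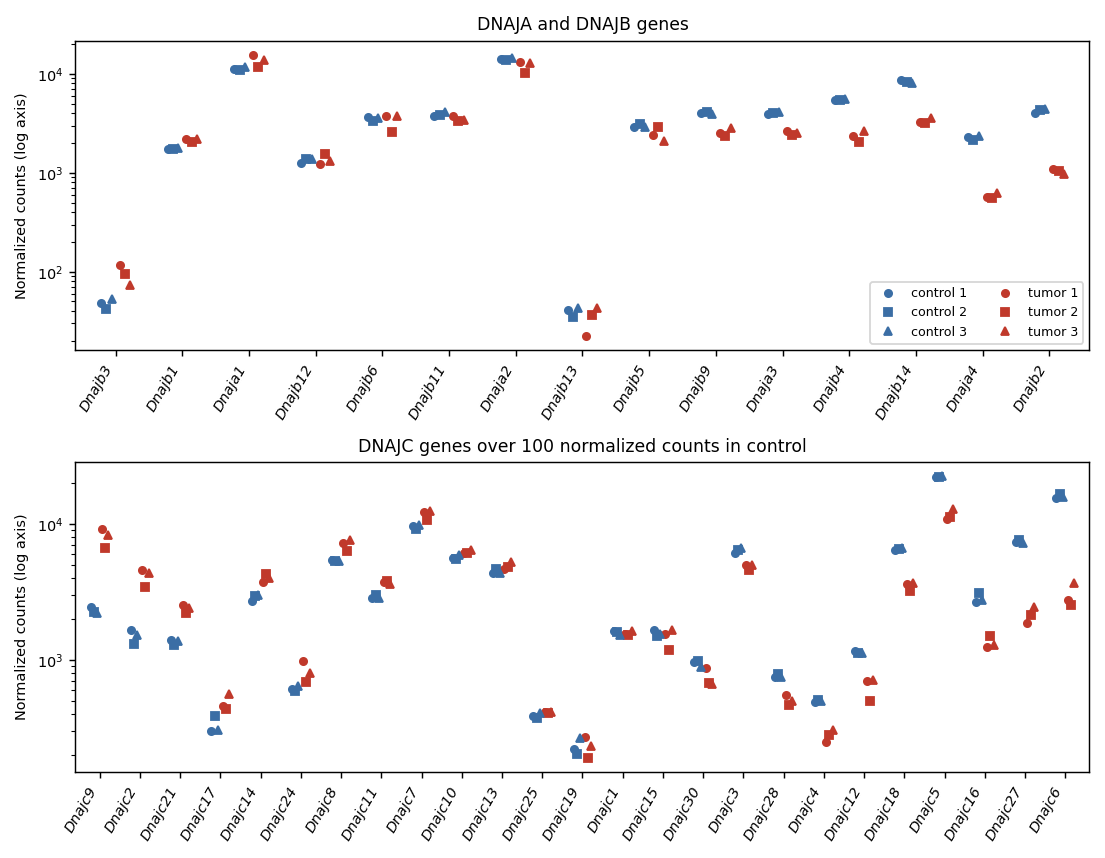
Normalized counts per library on a log axis for DNAJA and DNAJB genes (top) and for DNAJC genes over 100 normalized counts in control (bottom), sorted by log2 fold change. Dnajc9 and Dnajc2 at the left and Dnajc27 and Dnajc6 at the right show groups that are far apart, and genes in the middle of the lower panel, such as Dnajc19 and Dnajc1, overlap.

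The DNAJC family holds the widest range of changes and the most specialised proteins. Dnajc9, a chaperone of histones H3 and H4, rose most, with 2442, 2236 and 2214 normalized counts in the controls and 9174, 6607 and 8303 in the tumors (log2 fold change 1.79 ± 0.12, limma adjusted p = 7.78e-07), or 3.46-fold. Dnajc2, the ribosome-bound partner of Hspa14, had 1650.5, 1317 and 1539.7 normalized counts in the controls and 4584, 3466 and 4377 in the tumors (log2 fold change 1.46 ± 0.13, limma adjusted p = 5.12e-06). Dnajc21, a factor of ribosome assembly, had 1392, 1292 and 1373 normalized counts in the controls and 2523, 2201 and 2411 in the tumors (log2 fold change 0.81 ± 0.090, limma adjusted p = 2.9e-05). For these 3 genes all tumors were above all controls. Dnajc17, a nuclear J-protein, had 299, 386 and 309 normalized counts in the controls and 462, 438 and 562 in the tumors (log2 fold change 0.56 ± 0.16, limma adjusted p = 0.0124; 0.0511 without control 1). Dnajc14, Dnajc24, Dnajc8, Dnajc11 and Dnajc7 rose by less, with log2 fold changes from 0.30 to 0.47. Dnajc24 lost its call in 5 of 16 alternatives (upper-quartile scaling and without any 1 control or tumor 1), where the adjusted p was at most 0.112. Dnajc7, a J-protein with tetratricopeptide repeats that binds HSP70 and HSP90, had 9587, 9242 and 9748 normalized counts in the controls and 12188, 10648 and 12376 in the tumors (log2 fold change 0.30 ± 0.084, limma adjusted p = 0.0111; 0.0516 without control 2), and it overlaps the oligodendrocyte gene Cnp on the other strand, whose mean went from 30721 to 6336.

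The largest falls among the abundant DNAJC genes were of Dnajc6, Dnajc27, Dnajc16 and Dnajc5. Dnajc6 encodes auxilin, which strips clathrin from endocytic vesicles in neurons, and had 15494, 16475 and 15821 normalized counts in the controls and 2757, 2536 and 3677 in the tumors (log2 fold change -2.43 ± 0.13, limma adjusted p = 1.72e-07), a fall of 5.39-fold. Dnajc5 encodes the cysteine string protein of synaptic vesicles and had 22173, 22148 and 22310.0 normalized counts in the controls and 10941, 11175 and 12888 in the tumors (log2 fold change -0.93 ± 0.086, limma adjusted p = 7.73e-06). Dnajc27, a small GTPase of the Rab type with a J domain, had 7428, 7656 and 7263 normalized counts in the controls and 1862, 2143 and 2437 in the tumors (log2 fold change -1.80 ± 0.10, limma adjusted p = 2.95e-07). Tumor 3 was the highest of the tumors for all 3 genes, as it was for the summed mature granule neuron, Purkinje cell and GABAergic interneuron markers and also for those of oligodendrocytes, endothelium and mural cells. All tumors lay far below all controls, and the part of these cell types in this was not tested. Dnajc16 fell from 2652, 3104 and 2767 to 1257, 1504 and 1281 (log2 fold change -1.08 ± 0.10, limma adjusted p = 1.09e-05). Dnajc5b, a relative of Dnajc5 known from testis, was at a low level with 6.70, 14.3 and 23.5 normalized counts in the controls and 0, 0 and 1.97 in the tumors and was called lower (limma adjusted p = 0.00177). It had 40 reads in the controls together and 2 in the tumors, a ratio of tumor to control of 0.0386 (95% counting interval 0.00452 to 0.149, exact binomial). The remaining falls were of Dnajc18, Dnajc12, Dnajc4, Dnajc28, Dnajc3 and Dnajc30, with log2 fold changes from -0.90 to -0.36. Dnajc30 lost its call in 7 of 16 alternatives (edgeR, library totals and without any 1 library other than tumor 1), where the adjusted p was at most 0.109.

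Several J-proteins of this family sit in the endoplasmic reticulum. Dnajc3, a partner of BiP that also restrains the kinase PERK, fell modestly, with 6086, 6444 and 6651 normalized counts in the controls and 4981, 4612 and 4952 in the tumors (log2 fold change -0.40 ± 0.077, limma adjusted p = 0.00131). Dnajc10, a disulfide reductase, had 5647, 5570.2 and 5879.8 normalized counts in the controls and 6142, 6148 and 6429 in the tumors and was not called (log2 fold change 0.13 ± 0.072, limma adjusted p = 0.144), although its tumors were above its controls. Dnajc1, the endoplasmic reticulum J-protein ERdj1, was not called (log2 fold change -0.012 ± 0.086, limma adjusted p = 0.912). Among the endoplasmic reticulum members named here, Dnajb9, Dnajb14, Dnajc3, Dnajc16 and Dnajc18 were lower, Dnajb11, Dnajb12, Dnajc1, Dnajc10 and Hspa5 were not called, and Hspa13 and Dnajc14 were higher.

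Hspa5 and Dnajc3 were the 2 members with a match to the endoplasmic reticulum stress element, taken as CCAAT, any 9 bases and CCACG and searched on both strands, which was found for 0.137% of all genes searched. Both promoters are shown because their transcripts differ in call, one not called and one lower, while sharing this motif. They are the 250 bases before the RefSeq start on the plus strand of GRCm38.p6, at chr2:34771840-34772089 for Hspa5 and chr14:118937682-118937931 for Dnajc3, with the match in capitals.

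Hspa5: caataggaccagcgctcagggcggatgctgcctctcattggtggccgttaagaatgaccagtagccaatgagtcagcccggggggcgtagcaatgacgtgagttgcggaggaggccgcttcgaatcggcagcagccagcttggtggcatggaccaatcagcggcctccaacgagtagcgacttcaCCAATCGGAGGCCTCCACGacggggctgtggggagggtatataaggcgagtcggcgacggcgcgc

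Dnajc3: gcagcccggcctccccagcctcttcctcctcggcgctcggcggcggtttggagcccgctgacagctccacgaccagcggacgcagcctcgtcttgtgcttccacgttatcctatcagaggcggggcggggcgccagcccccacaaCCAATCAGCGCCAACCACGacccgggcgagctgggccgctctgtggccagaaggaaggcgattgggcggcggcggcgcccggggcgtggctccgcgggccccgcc

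The match ends 47 bases before the start in Hspa5 and 87 bases before the start in Dnajc3. Regulators of the unfolded protein response were read beside them: of 10 tested, 2 were higher and 5 lower. Among all genes tested, 30.6% were higher and 31.5% lower. Atf6 (log2 fold change -0.60 ± 0.082, limma adjusted p = 0.000127) and Ppp1r15a (log2 fold change -0.50 ± 0.12, limma adjusted p = 0.00438) were lower, and Chac1 (log2 fold change 0.59 ± 0.17, limma adjusted p = 0.011) and Ern1 (log2 fold change 0.57 ± 0.13, limma adjusted p = 0.00329) were higher. Of 14 folding enzymes and lectin chaperones of the endoplasmic reticulum, 7 were higher and 3 lower. The protein disulfide isomerases Pdia6 (log2 fold change 1.02 ± 0.096, limma adjusted p = 9.23e-06) and Pdia4 (log2 fold change 0.98 ± 0.11, limma adjusted p = 3.94e-05) rose, and the oxidase Ero1l (log2 fold change -0.65 ± 0.082, limma adjusted p = 7.71e-05) and Herpud1 (log2 fold change -0.35 ± 0.090, limma adjusted p = 0.00735) fell.

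Of the heat shock factors, Hsf2 had 2518, 2488 and 2368 normalized counts in the controls and 4277, 3494 and 3875 in the tumors and rose (log2 fold change 0.65 ± 0.093, limma adjusted p = 0.000165). Hsf1, the main factor of the heat shock response, had 1046, 1128 and 1039 normalized counts in the controls and 1207, 1557 and 929 in the tumors and was not called (log2 fold change 0.17 ± 0.17, limma adjusted p = 0.403); tumor 3 was below and the other tumors were above all controls. Leaving out tumor 3 made Hsf1 a second called gene of this family. Among relatives, Hsbp1, a small protein that binds Hsf1, rose (log2 fold change 0.41 ± 0.097, limma adjusted p = 0.00449), and Hsf4 fell (log2 fold change -1.63 ± 0.40, limma adjusted p = 0.00528) at a level of 35.3 ± 8.06 in control.

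HSP90 takes clients on from HSP70, and its genes carry other symbols than the members. Hsp90ab1, the constitutive cytosolic form, had 72389.9, 75552 and 78863 normalized counts in the controls and 172360.0, 155646 and 174934 in the tumors (log2 fold change 1.15 ± 0.10, limma adjusted p = 6.68e-06), a rise of 2.22-fold. Hsp90aa1, the inducible cytosolic form, had 48353, 49481 and 52401 normalized counts in the controls and 48055, 39263 and 48329.9 in the tumors and was not called (log2 fold change -0.15 ± 0.11, limma adjusted p = 0.234). Hsp90ab1 over Hsp90aa1 was 1.51 ± 0.0154 (SD, n = 3) in control and 3.72 ± 0.209 in tumor, without overlap (exact two-sided permutation p = 0.1, the smallest possible). Hsp90b1 of the endoplasmic reticulum (log2 fold change 0.012 ± 0.11, limma adjusted p = 0.931) and Trap1 of mitochondria (log2 fold change 0.051 ± 0.073, limma adjusted p = 0.571) were not called.

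Of 19 HSP90 co-chaperones 10 were higher and 4 lower, where all genes tested gave 30.6% higher and 31.5% lower. Fkbp5, an immunophilin of steroid receptor complexes, had 701, 537 and 612 normalized counts in the controls and 3588, 3612 and 3484 in the tumors (log2 fold change 2.54 ± 0.11, limma adjusted p = 5.45e-08). Ruvbl2, an ATPase of the R2TP complex, had 708, 735 and 757 normalized counts in the controls and 3095, 3793 and 2714 in the tumors (log2 fold change 2.11 ± 0.12, limma adjusted p = 3.53e-07). Cdc37l1 (log2 fold change -1.01 ± 0.085, limma adjusted p = 4.07e-06) and Ppp5c (log2 fold change -0.44 ± 0.085, limma adjusted p = 0.00132) fell. All tumors lay above all controls for Fkbp5 and Ruvbl2. Of 12 nucleotide exchange factors and partners of HSP70, 4 were higher (2 without control 1), 1 lower (0 without control 3 or tumor 1) and 7 not called. The share higher was near the 30.6% of all genes tested. Bag2 (log2 fold change 0.73 ± 0.12, limma adjusted p = 0.000346) and Bag6 (log2 fold change 0.73 ± 0.11, limma adjusted p = 0.000319) were at the top, and Sil1 (log2 fold change -0.44 ± 0.14, limma adjusted p = 0.0172) was lower.

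Partners of TRiC were read as a group too. Prefoldin, which hands actin and tubulin to TRiC, and the phosducin-like proteins had 6 of 9 genes higher and none lower. All genes tested gave 30.6% higher and 31.5% lower. Pfdn4 had 2186, 2085 and 1994 normalized counts in the controls and 5532, 3932 and 6263 in the tumors (log2 fold change 1.30 ± 0.15, limma adjusted p = 4.08e-05), and Pdcl3 had 2277, 2284 and 2303 normalized counts in the controls and 3969.7, 3417 and 4036 in the tumors (log2 fold change 0.73 ± 0.088, limma adjusted p = 5.42e-05). Both were above the controls in every tumor. Of 5 tubulin folding cofactors, which act after TRiC, 3 were higher and 1 lower; Tbca rose (log2 fold change 0.95 ± 0.15, limma adjusted p = 0.000336) and Tbce fell (log2 fold change -0.62 ± 0.11, limma adjusted p = 0.000542). Other mitochondrial chaperones and proteases moved both ways, with 4 of 9 listed genes higher and 3 lower. Htra2 rose (log2 fold change 0.57 ± 0.12, limma adjusted p = 0.00202) and Oma1 fell (log2 fold change -0.63 ± 0.12, limma adjusted p = 0.0013). The mitochondrial transcript share was 6.84% to 7.06% of reads in control and 2.49% to 3.79% in tumor.

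By the FDR of the authors' deposited table, 54 members fall under 0.05, and all 54 are among the 57 called by limma. Both come from the same libraries, so the overlap is no independent support. The share of all genes under that FDR was not computed, so the 54 cannot be read as particular to the members. The authors' shorter deposited list of 2654 genes, beside 43629 rows in the full table, holds 7 of the 84 members.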

How the data were processed

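Total RNA of tumor and of control cerebellum, in 3 libraries each, was sequenced after TruSeq library preparation, per the labels' protocols. Bowtie2 2.2.4, FastQC, edgeR and featureCounts appear in the submitters' processing notes beside the build mm10; how counting treated strand is not stated there. Signal in the authors' deposited full table is the number of reads of a gene over a size factor specific to the library: 100% of values were whole reads to within 1e-06 after multiplication by that factor. Its ratio (the fold of tumor over control means) and its p-value and FDR columns are the authors' deposited values and were used only where named.

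The filter kept 22117 genes that exceeded 1 in 3 or more libraries. They were tested in limma 3.58.1 (R 4.3.3, trend option) on the scale log2(value + 1), which understates changes of low genes; p-values were adjusted by Benjamini-Hochberg over all of them and calls made at 0.05. Errors of log2 fold changes are standard errors (n = 3 per group). Checked on simulated data, the test recovered 32% of 1.5-fold, 66% of 2-fold, 77.1% of 4-fold and 92% of 8-fold changes. It made 5 false calls among 22474 unchanged genes. Only 48 to 50 genes were changed at each size there, while 62.1% of all genes tested were called here. The adjustment is then stricter in the simulation, so these rates cannot be carried over to the calls above. A gene that was not called can still differ modestly between the groups. The values were described as normalized counts, so limma was kept as the main test, and count tests on the recovered reads (edgeR 4.0.16, DESeq2 1.42.0) were alternatives, with other pseudocounts, filters and scalings, a replicate block and each library left out. Per-kilobase levels used the joint length of all annotated exons of a gene in GENCODE vM21. Reads of genes with near-identical copies, such as Hspa1a and Hspa1b or genes with processed pseudogenes, may be split between them.

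Replicate numbers did not pair the samples. The rule for members reads symbols only, but these families and the lists were chosen with earlier results of these data known. Values in each library are printed for called members of HSP70, small heat shock proteins, HSP60, HSP10 and HSP110, TRiC and heat shock factors, for the 4 largest rises and falls of each DNAJ family, and for 11 J-proteins chosen by role. Up to 4 genes were named per pathway list by size of change. The list of J-proteins with other symbols is not reported here. Chi-square over degrees of freedom between libraries was 10.9 to 13.7 within control, 41.6 to 67.6 within tumor and 791 to 1080 between groups, so no 2 libraries agreed within counting noise; separate preparations from 1 animal cannot be told from separate animals by this.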

Additional observations from a re-analysis of the deposited data

How the results depend on the processing

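Across 16 alternatives, 25 to 35 members were higher and 25 to 30 lower in tumor, TRiC had 8 higher in each, and 48 of 57 called members kept their call wherever they were tested. The other 9 (Hspa8, Dnaja1, Dnajb1, Dnajb3, Dnajc7, Dnajc17, Dnajc24, Dnajc30 and Hspbp1) lost it in 1 to 7 alternatives, Dnajc30 in the most, and no called member changed sign; the cause was not tested. Of 21 members not called, 11 were called in some alternative. Small heat shock proteins called higher numbered 1 instead of 0 in edgeR, under library totals, with a pseudocount of 10 and with the replicate block, and 0 to 1 when 1 library was left out. DNAJA genes called higher numbered 0 instead of 1 under upper-quartile scaling and 0 to 1 with 1 library left out; DNAJB genes called higher numbered 1 to 2 and heat shock factors 1 to 2. Nucleotide exchange factors called higher ranged from 2 to 7 against 4, immediate early genes from 3 upward against 5, and the lower calls of the exchange factors and of the heat shock factor relatives were 0 in some alternatives against 1. Recomputing the lists, their genes and the family medians was chosen after seeing the data. The family medians that moved by more than the tumor libraries' spread were those of all members (0.0029 to 0.18), small heat shock proteins (-1.34 to -0.77), DNAJB (-0.33 to -0.15) and DNAJC (-0.078 to 0.11). No scaling moved the median of all genes by more than 0.09, and 45.6% to 53.6% of all calls were higher.

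A changed sign was seen for 8 members and 2 HSP90 genes, each not called in the main test. Under upper-quartile scaling the log2 fold change was -0.079 for Hspa5, -0.054 for Dnajb12, -0.078 for Dnajc19, -0.070 for Hsp90b1 and -0.030 for Trap1. Under library totals it was 0.0017 for Dnajb6 and 0.085 for Dnajc1, and for Dnajc1 also 0.0073 with TMM scaling and 0.0068 in edgeR. With 1 library left out it ranged from -0.15 to 0.099 for Hspa5, -0.068 to 0.099 for Dnajb12, -0.44 to 0.021 for Dnajb13, -0.19 to 0.083 for Dnajb6, -0.042 to 0.0084 for Dnajc1, -0.21 to 0.031 for Dnajc15, -0.12 to 0.13 for Dnajc19, -0.016 to 0.36 for Hsf1 and -0.080 to 0.070 for Hsp90b1.

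With the replicate block, 60 members were called against 57, all 57 among them and the others being Hspb2 (higher), Hspb7 (lower) and Dnajb5 (lower), and 6744 genes were higher and 6943 lower over the whole table. Same-numbered libraries did not deviate together (correlations 0.0221, -0.0512 and -0.0073), so the pairing rests on the number alone. Depth limits the 11 tested members with both means under 100 normalized counts, such as Hspa1l and Dnajc5b.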
